A study of Mus musculus with 18 samples.

Results

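This account describes the effect of aldosterone on gene expression in mouse aorta after 8 h of organ culture. It compares 3 samples cultured with 100 nM aldosterone with 3 samples cultured with vehicle, out of 18 samples in the series. All donors were wild-type C57Bl/6 males. Each had carried a subcutaneous pellet releasing spironolactone, a blocker of the mineralocorticoid receptor, at 20 mg/kg/day for 5 days before the aorta was taken, so the vehicle samples also come from blocked animals. Culture was in DMEM, a standard cell medium, and each sample is a pool of 3 aortas. The other 12 samples are the same treatments at 2 and 4 h. Of 22626 probe sets that are not array controls, 11466 (50.7%) had a log2 value above 4 in at least 3 of the 6 samples of 8 h and were tested. Among them 10520 belonged to 1 named gene, 411 to several genes and 535 to none, and the named ones covered 6692 genes. The filter was met by 23 probe sets only through the aldosterone samples and by 5 only through the vehicle samples, which favours a difference in them. Of these, 8 were later called higher (in Mt4, Lrrc49, Fkbp5, Mbd1, Slc45a3, Trim2, Tgm2 and Gcnt2) and 2 lower (Il1b and Stac).

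Aldosterone is the adrenal hormone that acts through the mineralocorticoid receptor, best known for sodium retention in the kidney and also present in the cells of the vessel wall. The receptor is a transcription factor: with hormone bound it leaves its chaperones, enters the nucleus and binds DNA elements that it shares with the glucocorticoid receptor. Aldosterone can also bind the glucocorticoid receptor, so a rise of genes common to both receptors does not tell which of them acted. In vessels the hormone is studied for its part in inflammation, stiffening and remodelling of the wall.

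The values are log2 expression estimates (GCRMA, a background-corrected summary of the probes of an array), so a difference of 1 is a doubling. Over the tested probe sets the 6 samples correlated with each other at 0.981 to 0.993. The median standard deviation (SD) within a group was 0.172 for vehicle and 0.136 for aldosterone. Along the main axis of variation among these samples, which carried 37.8% of the variance, vehicle replicate 3 lay farthest from the others. Markers of smooth muscle, the main cell of the aorta, were all measured (13 of 13), as were 10 of 12 endothelial and 10 of 10 fibroblast markers. No listed marker of neutrophils, skeletal muscle, Schwann cells or mesothelium passed the filter. One sample of another time, vehicle 2 h replicate 1, stood apart (12.8% of the tested probe sets were more than 1 log2 from its group mates); it enters here only through the estimate of spread. Differences were tested with limma across all 18 samples, and a probe set was called when its Benjamini-Hochberg adjusted p over all 11466 lay under 0.05. SE and 95% intervals come from that fit.

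After 8 h the response was mostly a rise. Of the 11466 probe sets, 123 were called (1.07%), 108 higher with aldosterone (0.942%) and 15 lower (0.131%). The 3 values of one group lay wholly above the 3 of the other for all 123, against 14.9% of all probe sets tested (9.32% with aldosterone above, 5.62% with it below). Rises were also larger: 62 called probe sets were more than 2-fold higher and 2 more than 2-fold lower, those of Krt18 and Il1b. The median difference over all tested probe sets was 0.02, and 53.8% of them lay above 0. With each gene represented by its brightest probe set, 71 of 6692 genes were called (1.06%), 61 higher (0.912%) and 10 lower (0.149%). A further 15 genes were called through a dimmer probe set alone, and 9 called probe sets, all higher, have no gene in the annotation. In pooled tissue, more RNA per cell and more cells that express a gene cannot be told apart.

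**Figure D1:**
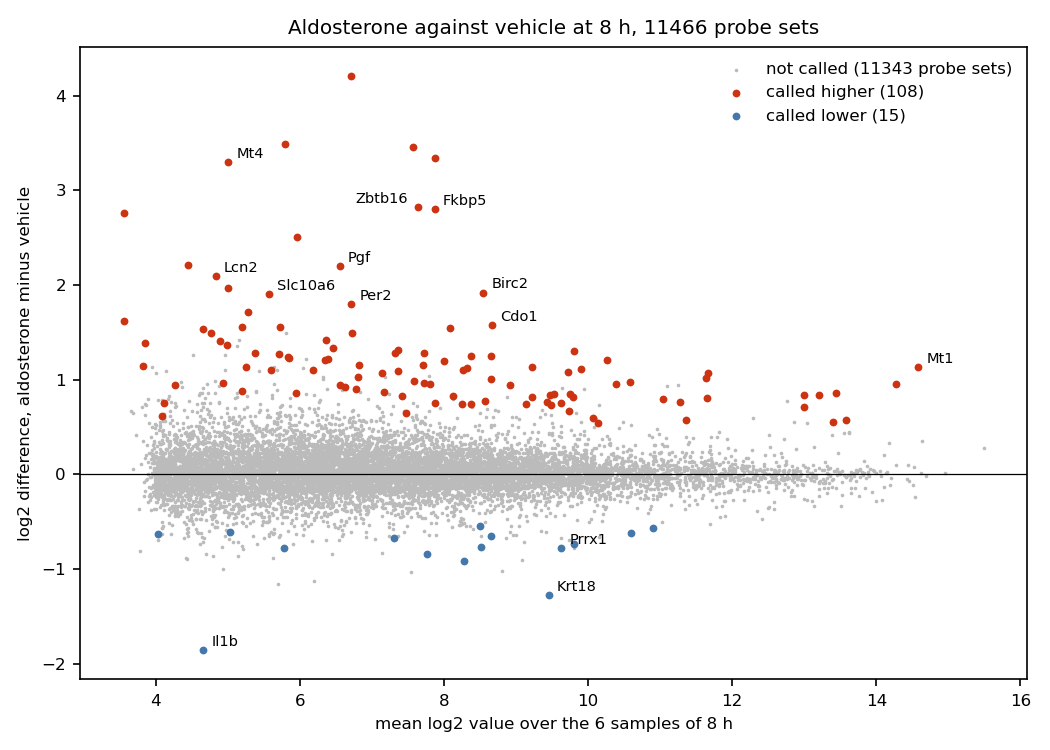
Log2 difference between aldosterone and vehicle at 8 h (vertical) against the mean log2 value over the 6 samples (horizontal), 1 point per tested probe set. The 108 probe sets called higher (red) are found at all levels, from Mt4 to Mt1, and reach larger differences than the 15 called lower (blue), of which Il1b and Krt18 lie lowest.

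How far these calls rest on single samples differed between genes. Of the 71 genes, 30 kept their call when any one of the 6 samples of 8 h was left out, and 28 kept it under every alternative tried that measured them. Without aldosterone replicate 2 the number of called probe sets fell from 123 to 66, all of them among the 123. Leaving out vehicle 2 h replicate 1 raised it to 194, all 123 included. Below, a gene that loses its call without a sample is given with the number of such samples among the 6 of 8 h and the largest adjusted p so reached. The 12 samples of 2 and 4 h also count, through the estimate of spread, and 9 calls ended without 1 of them: Gadd45a and Rhou (10 of the 12), Plin4 (9), Phka2 (8), Kcnj8 (7), Sesn1 (5), Il1b (3), Mrc1 (2) and Gdap10 (1), with adjusted p up to 0.0719.

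Several of the largest rises were in well-known targets of corticosteroid receptors. Of 40 measured genes in a list of corticosteroid-induced regulators, 13 were called higher (against 0.912% of all genes) and none lower, and 35 lay above 0 (53.9% of all genes did). The list's median difference was 0.47. This list and those below were chosen with earlier results of these data known. Their shares of calls are therefore a description and no independent support. The 13 were Fkbp5, Zbtb16, Sgk1, Klf9, Per1, Cebpd, Map3k6, Slc10a6, Mt1, Mt2, Lcn2, Tgm2 and Sesn1, several of which are taken up again below with their own families. Without aldosterone replicate 2 the list had 8 calls. Fkbp5, a chaperone that dampens corticosteroid receptors and is among their most sensitive targets, read 6.48, 6.53 and 6.40 with vehicle and 9.23, 9.43 and 9.15 with aldosterone. Its values were tight in both groups and 2.62 log2 apart at their nearest points, a rise of 2.80 (SE 0.26, 95% interval 2.25 to 3.35, adjusted p = 6.72e-06, limma), or 6.96-fold. A second, dimmer Fkbp5 probe set was below the filter level in every vehicle sample and passed only through aldosterone, at least 1.92-fold higher. Zbtb16, a zinc-finger repressor also called PLZF, read 6.25, 6.49 and 5.96 with vehicle and 9.05, 9.22 and 8.89 with aldosterone. The groups were again far apart, and the rise was 2.82 (SE 0.19, adjusted p = 5.64e-08), or 7.06-fold. Its dimmer second probe set rose by 1.97 (adjusted p = 0.00293).

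Serum- and glucocorticoid-regulated kinase 1 (Sgk1), the kinase through which aldosterone acts on renal sodium channels, rose less. Vehicle samples read 10.44, 11.07 and 11.18 and aldosterone samples 11.72, 11.65 and 11.60. Most of the spread came from vehicle replicate 1, the lowest of the 6, and the rise was 0.76 (SE 0.17, adjusted p = 0.0316), or 1.69-fold. Slc10a6, a transporter of sulphated steroids, read 4.87, 4.88 and 4.10 with vehicle and 6.62, 6.86 and 6.07 with aldosterone. Replicate 3 was the lowest of each group, and the groups were 1.19 apart at their nearest points, with a rise of 1.90 (SE 0.38, adjusted p = 0.0153). The call of Sgk1 ended without 1 of 4 samples (adjusted p up to 0.137), and that of Slc10a6 without 1 of 3 (up to 0.109).

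The 250 bases before the start sites of 3 risen genes are shown because they hold letters of the element that corticosteroid receptors bind. They are from RefSeq (GRCm38.p6), 5′ to 3′ on the gene's strand, and capitals mark each TGTTCT, or AGAACA, the same letters on the other strand. They are Sgk1 (chr10:21993640-21993889, plus strand), Slc10a6 (chr5:103629404-103629653, minus strand) and Serpina3n (chr12:104406458-104406707, plus strand).
Sgk1: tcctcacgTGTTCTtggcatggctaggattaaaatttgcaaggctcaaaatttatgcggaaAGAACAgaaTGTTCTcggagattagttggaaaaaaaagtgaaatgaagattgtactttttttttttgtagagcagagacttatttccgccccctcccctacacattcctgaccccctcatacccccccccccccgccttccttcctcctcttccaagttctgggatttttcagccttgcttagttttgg
Slc10a6: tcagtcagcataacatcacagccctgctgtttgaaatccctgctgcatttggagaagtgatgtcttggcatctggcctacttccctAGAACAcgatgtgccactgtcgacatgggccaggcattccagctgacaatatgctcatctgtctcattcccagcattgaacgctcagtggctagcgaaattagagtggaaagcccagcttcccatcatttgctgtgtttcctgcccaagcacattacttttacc
Serpina3n: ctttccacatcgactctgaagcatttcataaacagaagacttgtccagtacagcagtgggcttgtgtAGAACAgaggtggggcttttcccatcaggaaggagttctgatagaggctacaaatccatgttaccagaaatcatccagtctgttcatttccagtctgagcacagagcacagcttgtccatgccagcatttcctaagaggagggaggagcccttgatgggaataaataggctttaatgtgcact

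In Sgk1 a complete element, AGAACA and TGTTCT set 3 bases apart, lay at positions -189 to -175 from the start site, with another TGTTCT at -242 to -237. Only 3 of 32851 promoter windows in the table (0.00913%), each 300 bases long (250 before and 50 after the start), hold the complete element, those of Sgk1, Acnat2 and Gm35041; Sgk1 is the one of them among the tested genes. This window is 1 of 6 listed for Sgk1. TGTTCT alone, on either strand, is common: 19.0% of all windows hold it, 12% of those of tested genes and 15.2% of the 92 windows of genes called higher. Windows were found for 68 of the 86 genes with a called probe set. Zbtb16 and Per2 had none.

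Further called members were regulators and enzymes of stress and growth. Klf9, a zinc-finger regulator induced by corticosteroids in many tissues, read 12.61, 13.06 and 12.69 with vehicle and 13.68, 13.76 and 13.42 with aldosterone, a rise of 0.84 (SE 0.12, adjusted p = 0.000544). It was measured by 6 probe sets. The other 4 called ones rose by 0.80, 0.96, 0.98 and 1.01, and the last differed by 1.42 (adjusted p = 0.478), with vehicle replicate 3 far down at 3.03. Map3k6, a stress-activated kinase, read 6.95, 6.96 and 6.11 against 7.87, 8.20 and 7.80, a rise of 1.28 (SE 0.21, adjusted p = 0.0033), with vehicle replicate 3 the lowest. Sesn1, a sestrin that restrains the growth kinase mTORC1, read 6.06, 6.02 and 5.33 against 7.27, 7.34 and 6.78, a rise of 1.33 (SE 0.31, adjusted p = 0.0408). In Sesn1 replicate 3 was again the lowest of both groups. All 3 of its probe sets were called, yet the call of the brightest ended without any one of the 6 samples (adjusted p up to 0.238). The transcription factor Cebpd rose by 0.74 (adjusted p = 0.00773; up to 0.0547 without 1 of 2 samples) and the crosslinking enzyme Tgm2 by 0.55 (adjusted p = 0.00835; up to 0.0598 without 1 of 2 samples), with 5 of the 6 Tgm2 probe sets called.

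Not every classical target passed. Tsc22d3 (GILZ), which restrains inflammatory transcription, read 3.79, 3.67 and 3.85 with vehicle and 4.76, 4.37 and 4.56 with aldosterone, a difference of 0.79 (adjusted p = 0.309) although the groups did not overlap. Vehicle samples were all below the filter level for it. Irs2 differed by 0.82 (adjusted p = 0.0763), Klf15 by 0.87 (adjusted p = 0.134) and the phosphatase Dusp1 by 0.14 (adjusted p = 0.996).

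Among 10 measured corticosteroid receptors, chaperones and steroid enzymes, Fkbp5 was the one called. Nr3c1, the glucocorticoid receptor, read 9.71, 10.11 and 10.02 with vehicle and 9.55, 9.52 and 9.77 with aldosterone, a difference of -0.33 (95% interval -0.65 to -0.01, adjusted p = 0.745) with overlapping groups. Hsd11b2, the enzyme that inactivates glucocorticoids and so keeps the mineralocorticoid receptor for aldosterone, lay between 2.90 and 2.99 in all 6 samples, under the filter level. Hsd11b1, which works in the opposite direction, was measured at 6.54 to 7.19 and differed by 0.18 (SE 0.22, adjusted p = 1.0). H6pd, which supplies that enzyme with its cofactor, rose by 1.28 (SE 0.22, adjusted p = 0.004). Of 11 measured renal sodium transport targets, Sgk1 was the one called.

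Within the circadian clock, 2 of 16 measured genes were called (1.06% of all genes were), both of them period genes, which repress the clock and are direct corticosteroid targets. Per2 read 5.44, 5.90 and 6.09 with vehicle and 7.64, 7.96 and 7.21 with aldosterone, a rise of 1.80 (SE 0.22, adjusted p = 0.000141). Per1 read 5.91, 6.22 and 5.77 against 7.37, 7.59 and 7.41, a rise of 1.49 (SE 0.26, adjusted p = 0.00505), or 2.81-fold. For both, every aldosterone sample lay more than 1 log2 above every vehicle sample, a clear gap. The clock's core activators were not called: Clock differed by 0.13 (SE 0.17) and Arntl by 0.12 (SE 0.20), both with adjusted p = 1.0. Nr1d1, a repressor in the second loop of the clock, differed by -1.0 (SE 0.38, adjusted p = 0.466). Its vehicle replicate 2 (6.47) stood above the other 2 vehicle samples (both 4.91), while the aldosterone samples read at most 4.6.

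Metallothioneins, small proteins that bind zinc and copper and are induced by both metals and corticosteroids, rose at both ends of the scale. All 3 measured metallothioneins were called, and none of the other 8 measured genes of zinc handling. Mt4, usually a gene of squamous epithelium, read 3.78, 2.88 and 3.39 with vehicle, all below the filter level, and 6.55, 6.73 and 6.68 with aldosterone. It passed the filter only through aldosterone, so the rise is a lower bound, at least 6.3-fold against the filter level. The fitted difference, read against background, was 3.30 (SE 0.19, adjusted p = 1.29e-08). Mt1 read 14.22, 14.11 and 13.72 with vehicle and 14.77, 15.34 and 15.33 with aldosterone, a rise of 1.13 (SE 0.18, adjusted p = 0.00293), and by 1.42 in its dimmer probe set (adjusted p = 0.00569). Mt2 read 14.14, 13.72 and 13.53 against 14.63, 14.73 and 14.87, a rise of 0.95 (SE 0.18, adjusted p = 0.00886; up to 0.0637 without 1 of 3 samples). Slc39a14, a zinc importer, differed by 0.54 (adjusted p = 0.11). Metallothioneins are close copies, and the brighter Mt1 probe set carries the suffix that marks probes shared between transcripts, so their signals may be partly shared.

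These genes lie together on chromosome 8 in the order Mt4, Mt3, Mt2, Mt1, with no other coding gene between. Promoters are shown for the 3 called higher at 8 h (RefSeq, GRCm38.p6, plus strand, 5′ to 3′): Mt4 (chr8:94136954-94137203), Mt2 (chr8:94172368-94172617) and Mt1 (chr8:94178839-94179088). Capitals mark the core of the metal response element, TGCACNC or TGCGCNC, on either strand.
Mt4: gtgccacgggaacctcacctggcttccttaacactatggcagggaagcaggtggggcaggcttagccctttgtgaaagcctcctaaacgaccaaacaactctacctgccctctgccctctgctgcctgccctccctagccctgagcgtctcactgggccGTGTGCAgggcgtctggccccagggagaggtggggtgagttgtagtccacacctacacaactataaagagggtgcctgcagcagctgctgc
Mt2: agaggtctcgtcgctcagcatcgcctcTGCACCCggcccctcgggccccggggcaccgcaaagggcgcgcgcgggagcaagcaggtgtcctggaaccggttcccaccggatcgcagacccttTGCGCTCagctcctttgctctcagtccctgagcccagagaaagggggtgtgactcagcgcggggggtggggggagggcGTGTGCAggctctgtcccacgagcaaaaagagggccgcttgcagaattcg
Mt1: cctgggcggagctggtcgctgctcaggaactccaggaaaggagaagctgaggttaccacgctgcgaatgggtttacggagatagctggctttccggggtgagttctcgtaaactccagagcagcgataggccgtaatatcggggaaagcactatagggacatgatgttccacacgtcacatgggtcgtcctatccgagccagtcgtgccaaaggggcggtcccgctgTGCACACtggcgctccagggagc

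In the stretches shown, Mt2 held 3 such cores, at -223 to -217, -128 to -122 and -50 to -44. Mt4 held 1 at -91 to -85 and Mt1 held 1 at -23 to -17. These counts end at RefSeq's start site, so they do not say how many cores each whole promoter holds. TGCACNC occurs in 12.6% of all promoter windows, 12.1% of those of tested genes and 10.9% of those of genes called higher. TGCGCNC occurs in 15.4%, 27% and 18.5%, so it was not more frequent among the risen genes than among the tested ones. None of the 3 stretches holds TGTTCT in either direction.

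**Figure D2:**
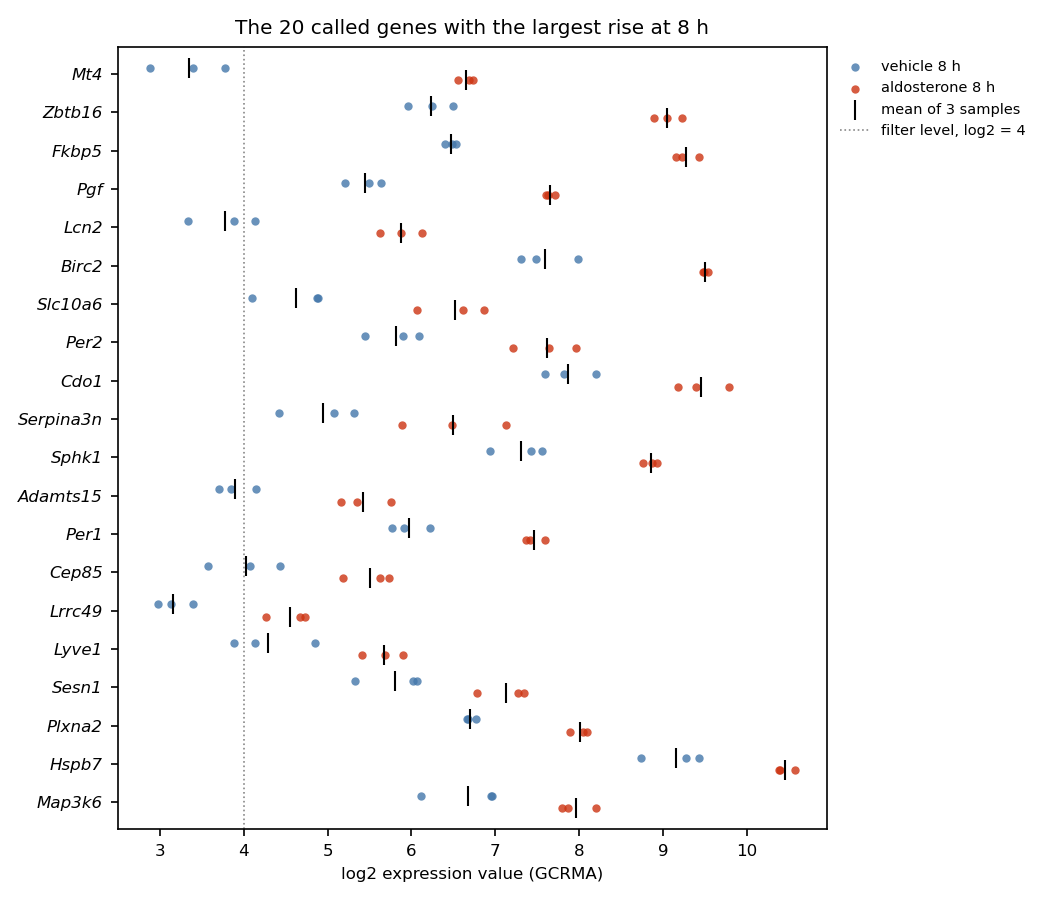
Log2 values of each sample of 8 h for the 20 called genes with the largest rise. In every gene the 3 aldosterone samples (red) lie to the right of the 3 vehicle samples (blue). Mt4, Lrrc49 and several others start near or below the filter level of 4 (dotted line).

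Of 15 measured acute-phase and innate defence genes 2 were called, both higher (0.912% of all genes were). Lcn2, the iron-carrier-binding protein lipocalin 2, read 4.14, 3.88 and 3.34 with vehicle and 6.13, 5.62 and 5.88 with aldosterone, a rise of 2.09 (SE 0.20, adjusted p = 7.57e-06), or 4.27-fold. Vehicle samples lay close to the filter level and none reached the lowest aldosterone sample. Serpina3n, a protease inhibitor and the third promoter shown above, read 5.31, 4.42 and 5.08 against 7.13, 6.48 and 5.89. The 3 aldosterone samples spread over more than 1 log2, and the rise was 1.56 (SE 0.29, adjusted p = 0.00773; up to 0.0555 without 1 of 2 samples). Fgl2 was called through 1 of its 2 probe sets, by 1.07 (adjusted p = 7.57e-06).

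Cytokines were few. Csf3, the growth factor of neutrophils, read 4.95, 4.59 and 4.67 with vehicle and 5.60, 6.04 and 6.42 with aldosterone, a rise of 1.28 (SE 0.28, adjusted p = 0.0282; up to 0.181 without 1 of 4 samples). Il1b, the inflammatory cytokine interleukin 1 beta, moved the other way, from 6.38, 5.06 and 5.33 to 3.72, 3.66 and 3.80. All aldosterone samples lay under the filter level, so the fall was at least 3.01-fold. The fit gave -1.86 (SE 0.42, adjusted p = 0.0379). Vehicle replicate 1 was the highest, and without it the difference was -1.47 (adjusted p = 0.179). The call also ended without any one of 4 other samples of 8 h and of 3 earlier ones. The other 9 measured cytokines were not called, Il6 differing by 0.05 (adjusted p = 1.0).

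Chemokines had 1 call among 15, and it was lower. Cxcl12, which retains and attracts leukocytes and progenitors, read 9.06, 8.87 and 8.98 with vehicle and 8.33, 8.40 and 8.23 with aldosterone, a fall of 1.57-fold (difference -0.65, SE 0.14, adjusted p = 0.0233). Its other probe set differed by -0.64 and was not called. The groups were cleanly apart, but the call ended without any one of the 6 samples (adjusted p up to 0.131). The list's median was 0.33, with 10 of 15 above 0 (53.9% of all genes). Ccl6 differed by 1.10 (adjusted p = 0.063) and Ccl11 by 0.85 (adjusted p = 0.296). None of the 12 measured leukocyte adhesion genes was called: Icam1 differed by 0.43 (adjusted p = 0.659) and Jam2 by 0.45 (adjusted p = 0.529).

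Both a macrophage marker and a marker of lymphatic vessels were higher with aldosterone than with vehicle at 8 h. Mrc1, the mannose receptor of tissue macrophages, read 5.40, 4.87 and 4.94 with vehicle and 6.59, 6.45 and 5.98 with aldosterone, a rise of 1.27 (SE 0.28, adjusted p = 0.0345; up to 0.183 without 1 of 4 samples). It was the one called among 7 measured macrophage markers. Their summed level was 9.57 to 10.13 with vehicle and 9.80 to 9.96 with aldosterone, and Csf1r, which defines the lineage, differed by 0.01 (SE 0.26). Lyve1, a hyaluronan receptor of lymphatic endothelium and some macrophages, read 3.89, 4.14 and 4.85 against 5.90, 5.69 and 5.41. Its rise was 1.37 (SE 0.29, adjusted p = 0.0253; up to 0.137 without 1 of 4 samples). The other Lyve1 probe set differed by 0.50 and was not called. Both Mrc1 and Lyve1 were lower at 8 h than at 2 h in both groups. Mrc1 means at 2, 4 and 8 h were 8.59, 7.67 and 5.07 with vehicle and 8.57, 7.28 and 6.34 with aldosterone. Those of Lyve1 were 6.68, 5.74 and 4.29 with vehicle and 6.69, 5.62 and 5.67 with aldosterone.

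Ligands and receptors of vessel growth split. Pgf, placental growth factor, which acts through the VEGF receptor FLT1, read 5.49, 5.64 and 5.21 with vehicle and 7.60, 7.63 and 7.71 with aldosterone. The aldosterone samples were nearly equal (SD 0.05) and far above vehicle, a rise of 2.20 (SE 0.41, 95% interval 1.33 to 3.06, adjusted p = 0.00844), or 4.59-fold. The call stood at the threshold without vehicle replicate 3 (adjusted p = 0.0504). Nrp1, a co-receptor for VEGF and semaphorins, fell from 10.06, 10.29 and 10.19 to 9.75, 9.42 and 9.15, a difference of -0.74 (SE 0.15, adjusted p = 0.0154; up to 0.116 without 1 of 4 samples). All 3 Nrp1 probe sets were called lower, by -0.74 to -0.84. The other 9 measured family members were not called. Vegfa read 10.64, 10.51 and 10.72 with vehicle and 10.54, 10.55 and 10.69 with aldosterone, a difference of -0.03. Its SE of 0.80 comes from the fit to all 18 samples and is far wider than the spread of these 8 h values. Flt1 differed by 0.38 (limma adjusted p = 0.63) and Angpt2 by 0.72 (adjusted p = 0.334).

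Guidance molecules, which steer axons and vessel sprouts, had 3 calls among 18, against 1.06% of all genes. Plxna2, a semaphorin receptor, read 6.67, 6.66 and 6.77 with vehicle and 7.89, 8.09 and 8.05 with aldosterone, a rise of 1.31 (SE 0.14, adjusted p = 2.15e-05) with an SD of 0.06 and 0.10 in the groups. Sema5a, a membrane semaphorin, fell from 6.17, 6.21 and 6.13 to 5.52, 5.38 and 5.28, a difference of -0.78 (SE 0.17, adjusted p = 0.0316; up to 0.159 without any one of the 6 samples). The remaining call was the fall of Nrp1. The list's median was -0.09, with 6 of 18 above 0 (53.9% of all genes were).

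Single genes of cell survival and signalling were also called. Birc2 (cIAP1), a ubiquitin ligase that blocks cell death downstream of TNF receptors, read 7.98, 7.30 and 7.48 with vehicle and 9.53, 9.48 and 9.49 with aldosterone. The 3 aldosterone samples were nearly equal, and the rise was 1.92 (SE 0.16, adjusted p = 1.51e-06), or 3.77-fold. Of the other 14 measured apoptosis genes none was called, and Birc3, the closest relative of Birc2, differed by 0.61 (adjusted p = 0.249). Tmem123, the coding gene next to Birc2 on its chromosome, rose by 0.67 (adjusted p = 0.0119; up to 0.0759 without 1 of 4 samples). Spsb1 and H6pd are likewise direct neighbours, and both rose (1.15, adjusted p = 0.00052, for Spsb1).

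Sphk1, which makes the signalling lipid sphingosine-1-phosphate, read 7.56, 7.43 and 6.94 against 8.76, 8.87 and 8.93, a rise of 1.54 (SE 0.16, adjusted p = 2e-05). It was the one called among 12 genes of that pathway, with Sphk2 at 0.00 (adjusted p = 1.0). In the MAP kinase list Map3k8, an activator of ERK signalling, rose by 1.13 beside Map3k6 (adjusted p = 0.0134; up to 0.0906 without 1 of 3 samples). Gadd45a, a growth-arrest gene of the p53 response, fell from 8.84, 8.82 and 8.63 to 7.96, 8.39 and 8.31. The difference of -0.55 (SE 0.13, adjusted p = 0.0472) lost its call without any one of the 6 samples (adjusted p up to 0.292). Hipk2, a kinase that activates p53, rose by 0.94 (adjusted p = 0.008; 0.0513 without aldosterone replicate 2).

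Matrix genes gave single calls in several lists. Lox, which crosslinks collagen and elastin, rose by 0.95 (SE 0.18, adjusted p = 0.00967; up to 0.0631 without 1 of 3 samples), and its other probe set by 1.08 (adjusted p = 0.0033). It was the one called of 10 lysyl oxidase and elastic fibre genes, among which elastin itself (Eln) differed by -1.02 (adjusted p = 0.109). Ccn2 (connective tissue growth factor), a matricellular protein, read 12.84, 13.15 and 13.01 against 13.88, 13.93 and 13.79, a rise of 0.86 (SE 0.08, adjusted p = 7.57e-06). The remaining 25 measured TGF-beta, CCN and YAP target genes were not called. Adamts15, a proteoglycan-cleaving protease, read 4.15, 3.85 and 3.70 against 5.35, 5.75 and 5.16, a rise of 1.53 (SE 0.31, adjusted p = 0.0195; up to 0.135 without 1 of 4 samples). Timp3, a matrix-bound inhibitor of metalloproteinases, fell from 11, 10.91 and 10.79 to 10.27, 10.45 and 10.12 (difference -0.62, SE 0.11, adjusted p = 0.00569). It was measured by 4 probe sets, all between -0.92 and -0.47 and 2 of them called. Of 23 collagen genes and their processing enzymes none was called and the median was 0.0.

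Krt18, a keratin of simple epithelia, kept its call under every alternative tried. It read 10.21, 10.03 and 10.04 with vehicle and 8.86, 8.63 and 8.95 with aldosterone. The groups were 1.07 apart at their nearest points (difference -1.28, SE 0.18, adjusted p = 0.000612, 2.43-fold lower). It was the one keratin of 6 listed that passed the filter. Krt18 means at 2, 4 and 8 h rose in both groups. They were 6.73, 8.68 and 10.09 with vehicle and 6.19, 7.44 and 8.81 with aldosterone. The lower level with aldosterone at 8 h is therefore not a fall over earlier times. Prrx1, a mesenchymal homeobox factor used here as a fibroblast marker, read 9.88, 10.12 and 10.06 with vehicle and 9.27, 9.30 and 9.15 with aldosterone. The difference was -0.78 (SE 0.15, limma adjusted p = 0.00817, up to 0.0546 without 1 of 2 samples). Its means at 2, 4 and 8 h were 9.06, 8.69 and 10.02 with vehicle and 8.9, 8.23 and 9.24 with aldosterone. Of 4 tested Prrx1 probe sets only this 1 was called, and all lay between -0.78 and -0.26. Prrx1 was the one called of 10 fibroblast markers, whose summed level was 14.16 to 14.33 with vehicle and 14.18 to 14.49 with aldosterone. Tnk2, a tyrosine kinase, fell from 7.66, 7.53 and 7.72 to 6.98, 6.98 and 6.95 (difference -0.67, SE 0.12, adjusted p = 0.00514). Stac, an adaptor protein, went from 4.54, 4.24 and 4.24 to 3.66, 3.79 and 3.67, under the filter level, a fall of at least 1.26-fold (adjusted p = 0.0145; up to 0.0702 without 1 of 3 samples).

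**Figure D3:**
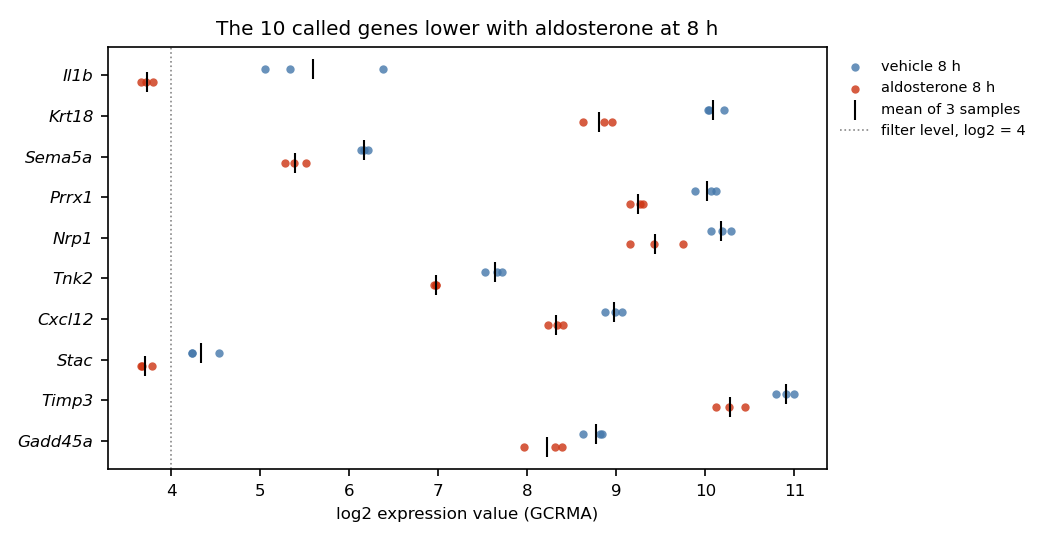
Log2 values of each sample of 8 h for the 10 called genes that were lower with aldosterone. The 3 aldosterone samples (red) lie to the left of the 3 vehicle samples (blue) in each, by most in Il1b and Krt18, and the aldosterone values of Il1b and Stac are under the filter level of 4 (dotted line).

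Cdo1, which degrades cysteine, read 7.82, 8.20 and 7.59 against 9.39, 9.79 and 9.18, a rise of 1.58 (SE 0.28, adjusted p = 0.00569; 0.0513 without aldosterone replicate 2). Among 20 oxidative stress and NRF2 genes, with a median of 0.0, Cdo1 was the one called. Replicate 2 was the highest and replicate 3 the lowest of each group. Fmo2, a flavin monooxygenase, rose by 1.25 (SE 0.20, adjusted p = 0.00244), and the mitochondrial carrier Slc25a30 by 0.92 (adjusted p = 0.0033). Plin4, a coat protein of lipid droplets, rose by 0.85 (adjusted p = 0.0381; up to 0.237 without 1 of 3 samples), with vehicle replicate 3 (8.48) below the other vehicle samples (9.38 and 9.42). It was the one called of 20 genes of glucose and lipid metabolism. Medag, a gene linked to fat-cell differentiation, rose by 0.83 (adjusted p = 0.0199; up to 0.122 without 1 of 4 samples).

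Fat-cell markers give the background for these genes, and 0 of 7 were called in the representative probe set (2 at an unadjusted p under 0.05, limma). The summed level of 7 measured fat-cell markers of 11 listed was 13.50 to 13.65 with vehicle and 13.92 to 14.18 with aldosterone, without overlap, and it is nearly all Fabp4. Fabp4, the fatty-acid carrier of fat cells, differed by 0.45 in its brightest probe set (adjusted p = 0.193) and was called in a dimmer one, by 1.24 (adjusted p = 0.0394). Ucp1, the uncoupling protein of brown fat, differed by 1.02 (adjusted p = 0.751). Adipoq, which defines fat cells, read 8.75 to 9.35 with vehicle and 8.92 to 8.99 with aldosterone, a difference of -0.12 (adjusted p = 1.0). The part of fat in the rises of Cdo1, Plin4, Medag and Fabp4 was not tested. The measured heart markers Tnnt2 and Actc1 were raised in aldosterone replicate 3 alone (7.40 and 6.71, against 4.40 to 5.38 and 3.81 to 5.11 elsewhere).

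Of the 71 called genes 35 were in none of the 43 lists. Those among the 20 largest rises were Cep85, a centrosomal protein, Lrrc49, a leucine-rich repeat protein, and Hspb7, a small heat-shock protein of muscle, besides genes already named. Cep85 read 4.08, 3.57 and 4.43 with vehicle and 5.73, 5.18 and 5.63 with aldosterone, a rise of 1.49 (SE 0.22, adjusted p = 0.00135). Lrrc49 read 3.13, 2.98 and 3.39 against 4.26, 4.67 and 4.73. Its vehicle samples were under the filter level, so the rise was at least 1.47-fold (adjusted p = 3.54e-05). Hspb7 read 9.43, 9.27 and 8.74 against 10.38, 10.57 and 10.39, a rise of 1.30 (SE 0.17, adjusted p = 0.00029), and 2 of its 3 probe sets, which lay between 1.04 and 1.30, were called.

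Among the other rises outside the lists, those that kept their call without any one of the 8 h samples were, beside H6pd, Spsb1, Fmo2 and Slc25a30, Cyb561, an electron-transferring membrane protein (1.25), Asph, an aspartate hydroxylase of the endoplasmic reticulum (1.13), Efhd2 (1.11), Nudt4, a hydrolase of inositol pyrophosphates (1.02), Fez1 (0.95), Dnajb4, an HSP40 co-chaperone (0.82), and the zinc-finger gene Zfp52 (0.57). Pld1, phospholipase D1, rose by 1.21 and missed the threshold without vehicle replicate 1 (adjusted p = 0.052). Those that missed it without aldosterone replicate 2 were Tbl1xr1 (1.10; adjusted p = 0.0645), Gcnt2 (0.94; 0.0568), Phldb2 (0.85; 0.0568) and Shroom3 (0.74; 0.0901). Not every tested probe set of the genes named so far was called. In Tbl1xr1 1 of 2 was called, with a lowest difference of 0.08. It was 1 of 3 in Slc25a30 (lowest 0.07), Pld1 (0.23) and Shroom3 (0.40), and 1 of 4 in Spsb1 (0.35) and Asph (0.51). In Gcnt2 it was 4 of 5 (lowest 0.30), in Zfp52 1 of 2 (0.52) and in Rhou, named next, 1 of 2 (0.35). It was also 1 of 2 in Medag, Sphk1 and Sema5a, whose other probe sets differed by 0.56, 1.26 and -0.64. Less secure rises were those of Fam117b (1.09; adjusted p up to 0.0816 without 1 sample), Mxd4 (1.07; 0.179), Ctla2b (1.03; 0.14), Phka2 (0.96; 0.276), Rhou (0.90; 0.278), Ifi30 (0.87; 0.0568), Gdap10 (0.83; 0.207), Akap12 (0.73; 0.0955) and Zfp281 (0.59; 0.109). Kcnj8, a pore subunit of the potassium channel that relaxes smooth muscle, rose by 1.15 (adjusted p = 0.0394; up to 0.278 without 1 of 4 samples) and was the one called of 15 ion channel genes of the vessel wall.

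The genes called through a dimmer probe set alone were Arhgap12 (1.41), Camk2d (0.74), Celf2 (0.82), Ezr (1.22), Fabp4 (1.24), Fgl2 (1.07), Klf6 (0.54), Lats2 (0.65), Mbd1 (2.51), Ralb (0.77), Scarb2 (0.75), Slc45a3 (at least 2.92-fold) and Trim2 (at least 1.32-fold), higher, and Msn (-0.57) and Wars (-0.61), lower. Their brightest probe sets missed the threshold, in Ezr at 0.04 and in Mbd1 at 0.42, while in others, such as Msn (-0.47) and Fgl2 (0.77), they differed in the same direction. The 4 largest rises of all belonged to probe sets without a gene name. Probe set 1449525_at read 4.74, 5.34 and 3.73 with vehicle and 8.66, 9.12 and 8.66 with aldosterone, a rise of 4.21 (SE 0.40, adjusted p = 7.57e-06), or 18.5-fold. The probe sets 1442026_at (3.49), 1452426_x_at (3.46) and 1442025_a_at (3.34) followed. The other 5 were 1437548_at (1.71), 1436737_a_at (1.21), 1425826_a_at (1.10), 1441115_at (0.88) and 1452418_at (0.57). In 1449525_at the vehicle mean fell with time in culture, from 9.36 at 2 h to 8.04 at 4 h and 4.60 at 8 h. Its aldosterone mean changed little (9.05, 8.53 and 8.81), so the 18.5-fold difference is not a rise over earlier times. Vehicle means also fell in 1442026_at (7.26, 6.39 and 4.05) and 1442025_a_at (8.96, 8.06 and 6.21). With aldosterone these were 7.28, 8.02 and 7.54, and 9.01, 10.12 and 9.54. In 1452426_x_at the means were 6.81, 6.37 and 5.84 with vehicle and 6.99, 7.24 and 9.29 with aldosterone.

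**Figure D4:**
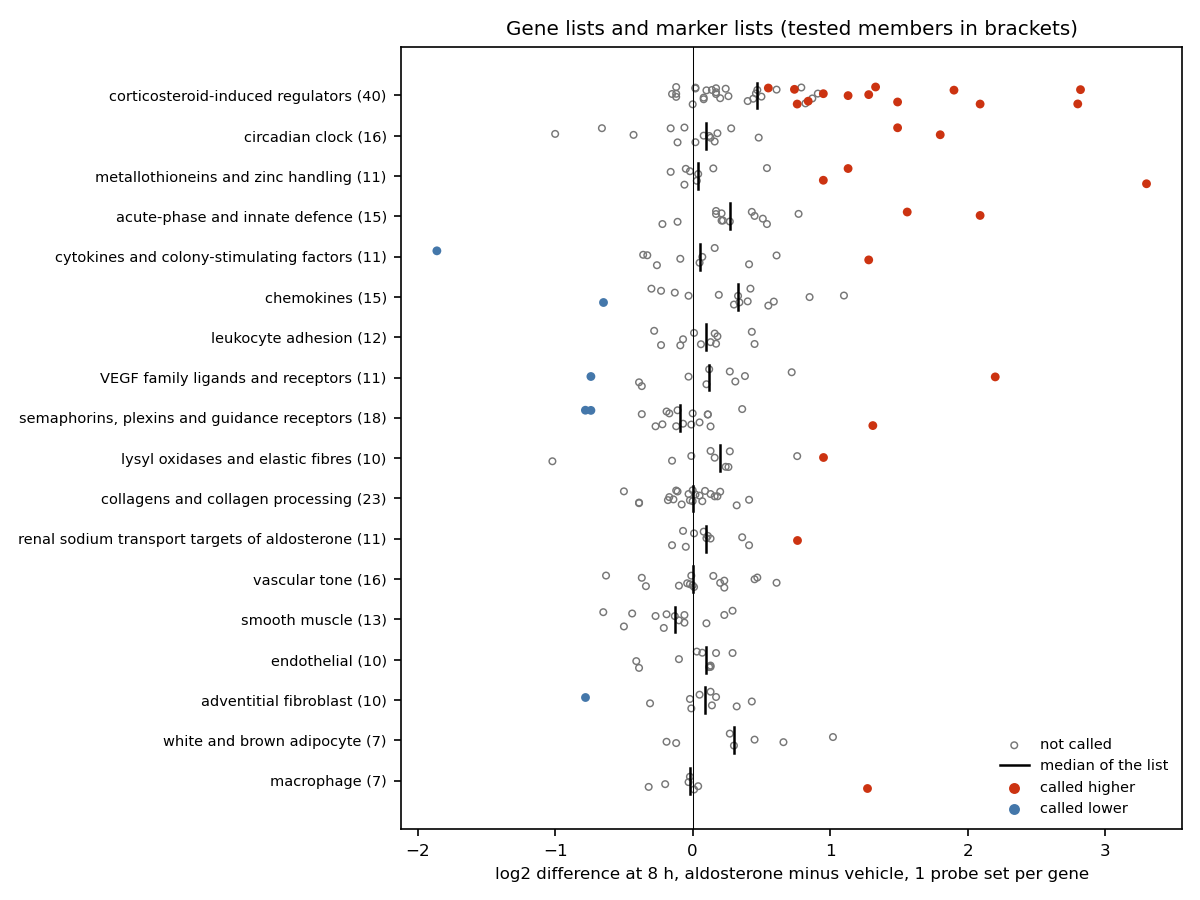
Log2 differences at 8 h of the measured members of 18 gene and marker lists, 1 point per gene; filled points were called (red higher, blue lower) and black bars are list medians. The corticosteroid-induced regulators lie mostly to the right of 0 with 13 calls. All lists were chosen with earlier results of these data known. Lists such as collagens and vascular tone centre near 0 without a call. Smooth muscle markers, also without a call, lie mostly to the left of 0.

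Pathway lists without a call by limma had 0 to 4 members, and 5 in vascular tone, with an unadjusted p under 0.05 (6.28% of all genes had one). Besides leukocyte adhesion and the collagens they were NF-kB components (10 measured, Birc3 and Relb having the smallest p), immediate early genes (22 measured, Jund 0.31 and Klf6 0.38, adjusted p = 0.309 and 0.349), vascular tone (16 measured, Rgs4 -0.63, adjusted p = 0.129, and Ace 0.45), hypoxia and glycolysis (17 measured, none with an unadjusted p under 0.05), the heat-shock and unfolded protein response (19 measured, Hspb1 0.94, adjusted p = 0.203, and Hspa1a 0.82, adjusted p = 0.191), the ATF4 response (21 measured, Chac1 -0.28), interferon-induced genes (11 measured, Psmb8 -0.61 and Ifi35 0.72) and the cell cycle (10 measured, Cdk2 -0.52 and Mcm3 0.62). Relb differed by -0.51 (adjusted p = 0.433). Of the 13 smooth muscle markers 3 lay above 0 (53.9% of all genes did), with a median of -0.13. None was called, and 3 were lower at an unadjusted p under 0.05 (limma). Their summed levels overlapped (15.72 to 15.92 with vehicle, 15.58 to 15.78 with aldosterone). Tpm1 differed by -0.50 (adjusted p = 0.336) and Synpo2 by -0.65 (adjusted p = 0.378). In the collagen list Col15a1 and Tnc both differed by -0.39. Endothelial markers had a median of 0.10, with Cldn5 at -0.41 (adjusted p = 0.529) and Tek at -0.39.

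The same probe sets were then followed at 2 and 4 h, in samples that share none with those of 8 h. At 4 h 28 of the 11466 probe sets were called (0.244%), 22 of which were among the 123 of 8 h. At 2 h 5 were called (0.0436%): Chac1, Resf1, Atp9a and Zfp52 higher and Hes1 lower, of which Zfp52 alone was also called at 8 h. Of the 108 probe sets higher at 8 h, 101 already lay above 0 at 4 h (52.1% of all tested did) and 72 at 2 h (36.0% of all). Their median difference was 0.07 at 2 h and 0.44 at 4 h, against 1.10 at 8 h. The 15 lower at 8 h were all below 0 at 4 h (47.9% of all tested) and 13 of them at 2 h (64.0% of all), with medians of -0.16 and -0.33 and then -0.74.

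Genes reached their 8 h difference along unlike courses. Pgf, Per1, Sgk1 and Krt18 were called at 4 h with differences of 2.19, 1.41, 0.93 and -1.24, close to those of 8 h, and the change from 4 to 8 h was not called for them (0.01, 0.08, -0.17 and -0.04, adjusted p = 1.0 for each). Fkbp5 and Zbtb16 were called at 4 h (1.90 and 1.80) and were larger at 8 h, though the change between these times was not called in their brightest probe sets (0.90, adjusted p = 1.0, and 1.03, adjusted p = 0.453). In the dimmer Fkbp5 probe set this change was called (1.65, SE 0.23, adjusted p = 0.00505, limma). Its 4 h means (2.22 with vehicle and 3.33 with aldosterone) were under the filter level. Mt4, Lcn2, Plxna2 and Lrrc49 were not called at 4 h (0.09, 0.24, -0.04 and -0.02), and the growth from 4 to 8 h was called for all 4 (Mt4 by 3.21, SE 0.27, adjusted p = 1.35e-05). At 4 h both group means of Mt4 (2.96 and 3.05), Lcn2 (3.31 and 3.55) and Lrrc49 (2.92 and 2.90) were under the filter level, where a difference could hardly show, so their growth is read against background; Plxna2 was measured at both times (7.01 and 6.97 at 4 h). Over all probe sets 10 had a called change of the effect between 4 and 8 h (0.0872%), all 10 increases and all called at 8 h. These contrasts share the 8 h samples with the calls of 8 h. Between 2 and 8 h there were 31 (0.27%), 29 increases, each called at 8 h, and 2 decreases, those of Atp9a and Chac1.

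Levels with vehicle alone also moved with time in culture. Of the 61 genes higher at 8 h, 41 had a lower vehicle mean at 8 h than at 4 h (44.9% of all genes did), and in 17 it was more than 1 log2 lower (5.87% of all). A low vehicle level at 8 h is part of what made these genes callable, so these shares are a description. Zbtb16 with vehicle went from 8.65 at 2 h to 7.88 at 4 h and 6.23 at 8 h, while with aldosterone it was 8.63, 9.67 and 9.05. Per2 with vehicle went from 8.04 and 7.67 to 5.81, and with aldosterone from 8.20 and 8.36 to 7.61. Mt1 took another course, rising in both groups, from 12.46 through 13.00 to 14.01 with vehicle and from 13.36 through 14.06 to 15.15 with aldosterone.

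**Figure D5:**
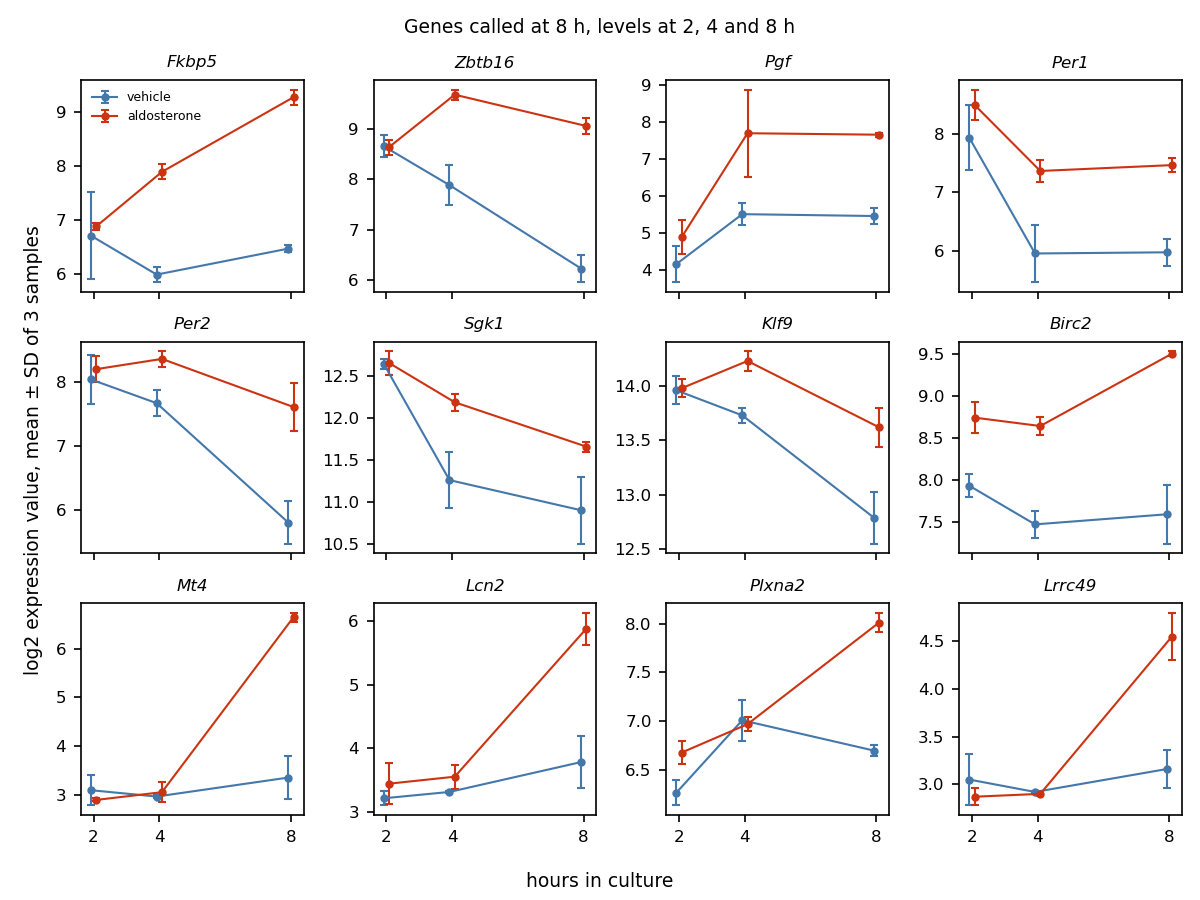
Mean log2 value ± SD of 3 samples at 2, 4 and 8 h in culture for 12 genes called at 8 h, vehicle in blue and aldosterone in red. In Zbtb16, Per2, Sgk1 and Klf9 the vehicle level falls with time and the aldosterone level is higher at 4 and 8 h, while Mt4, Lcn2, Plxna2 and Lrrc49 part between 4 and 8 h.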

How the data were processed

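RNA of 18 pools of mouse aortas was hybridised as biotin-labelled cRNA to 1-colour Affymetrix arrays, per the labels' protocols. The deposited values are log2 expression, background-corrected and summarised with GCRMA, per the submitters' processing notes (version not given in the sources used here). Arrays have no read depth, so the number of samples limits the precision. Values were used as deposited, without renormalization. Probe sets with log2 above 4 in at least 3 of the 6 samples of 8 h were kept, those without a gene name included. The model had 1 mean for each of the 6 groups and was fitted to all 18 samples (limma 3.58.1 in R 4.3.3, empirical Bayes with an intensity trend). All tested probe sets entered the Benjamini-Hochberg adjustment, and a call is an adjusted p under 0.05. The labels do not say which pools share a culture day, so p-values measure the spread between these pools. Where a group lay wholly at or under 4, a fold is given as a lower bound against 4.

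For a gene with several tested probe sets, the brightest on average in the 6 samples stands for it. Named are the 20 largest rises, all falls, called members of the lists and, in each list without a call, the genes with the smallest p; the remaining called genes are named with fewer values. Members, gene lists and marker lists were chosen with earlier results of these data known, so they are no independent support. Summed marker levels are log2 of summed unlogged values. Gene names are from the array's annotation. Of the 10520 probe sets with 1 gene, 10510 matched RefSeq, and promoter windows are RefSeq's (GRCm38.p6). Motifs were searched on both strands. The script was tested on simulated data.

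RNA integrity was checked by the 3' to 5' probe set differences of Gapdh and beta-actin. Their mean was 1.10 ± 0.17 (SD, n = 3) with vehicle and 1.12 ± 0.03 (SD, n = 3) with aldosterone (exact permutation test, two-sided, p = 0.8, the smallest possible being 0.1). Alternatives covered the filter, the intensity trend, the samples in the fit, normalization, array weights, the replicate number as a block, a floor and leaving out each sample.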

Additional observations from a re-analysis of the deposited data

Results flagged for a closer look

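Some genes had an aldosterone effect at 8 h that differed from the effect at an earlier time by a test of that difference (limma, Benjamini-Hochberg adjusted over all tested probe sets). Those given here are genes and probe sets called at 8 h, and their effects were larger at 8 h. The effects of Atp9a and Chac1, not called at 8 h, were smaller than at 2 h. Against 4 h the effect was larger by 3.21 in Mt4 (SE 0.27, adjusted p = 1.35e-05), 1.86 in Lcn2 (SE 0.28, adjusted p = 0.00805), 1.41 in Lrrc49 (SE 0.21, adjusted p = 0.00805) and 1.35 in Plxna2 (SE 0.19, adjusted p = 0.00616). Among probe sets without a gene it was larger by 3.73 in 1449525_at (adjusted p = 0.00805), 2.58 in 1452426_x_at (adjusted p = 0.00066) and 1.11 in 1436737_a_at (adjusted p = 0.0157).

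Against 2 h, the effects of Mt4 (by 3.50), Zbtb16 (2.84), Fkbp5 (2.63), Lcn2 (1.87) and Lrrc49 (1.56) were larger, with adjusted p between 1.78e-06 and 0.00298. The same held for the centrosomal gene Cep85 (1.69, adjusted p = 0.0271), the kinase Map3k8 (1.67, adjusted p = 0.0271), the clock gene Per2 (1.64, adjusted p = 0.03), Hspb7 (1.22, adjusted p = 0.038), Asph (1.21, adjusted p = 0.00298) and Birc2 (1.10, adjusted p = 0.0493). It also held for Nudt4 (1.07, adjusted p = 0.0023), Ccn2 (0.87, adjusted p = 0.00139) and Klf9 (0.81, adjusted p = 0.0455). Probe sets without a gene were larger by 4.52 (1449525_at), 3.47 (1442026_at), 3.29 (1442025_a_at), 3.28 (1452426_x_at) and 1.30 (1436737_a_at). Mt4, Lcn2 and Lrrc49 were under the filter level in both groups at 4 h, so their sizes are read against background. The 2 h effect includes the vehicle sample that stood apart from its group mates.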

How the results depend on the processing

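The 123 calls at 8 h became 71 with 1 probe set per gene, 395 with array weights (288 higher, 107 lower) and 675 with the replicate block and array weights together (470 and 205), both holding all 123. Leaving out 1 sample gave 66 (without aldosterone 8 h replicate 2) to 194 (without vehicle 2 h replicate 1). The other settings gave 99 to 139 calls, the most after a second quantile normalization (111 higher, 28 lower) and 113 when the 6 samples of 8 h were fitted alone (92 of them among the 123). The 10 calls for 8 h minus 4 h became 6 with log2 above 6, 4 with log2 above 4 in all 6 samples, 4 with 1 probe set per gene, 31 with array weights, 29 with block and weights, and 7 to 15 without 1 sample. The 31 for 8 h minus 2 h became 16 with log2 above 4 in all 6 samples, 14 with 1 probe set per gene, 105 with weights, 319 with block and weights, and 20 to 38 without 1 sample. Fewer probe sets were tested under the filters and with 1 per gene; the cause of the other moves was not tested. Of the 83 named differences over 31 settings, 2255 values kept side and direction, 278 lost the call, 3 gained it, and 1 turned, Hsd11b1 without vehicle 8 h replicate 3 (-0.000154, and up to 0.32 without another sample). The corticosteroid-induced list had 8 calls without aldosterone 8 h replicate 2 and 21 with block and weights. Equal replicate numbers did not pair the samples of 8 h (correlations of deviations -0.186, 0.119 and -0.0682), and the replicate block gave 122 calls at 8 h, 9 for 8 h minus 4 h and 25 for 8 h minus 2 h. No alternatives were added. Signals near background limit what is known of Mt4, Lrrc49, Il1b and Stac.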
